A study of Felis catus with 12 samples.

Results

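PECAM1, CDH5, KDR, FLT1, TEK, TIE1, EGFL7, ENG, CLDN5 and ESAM are genes by which endothelial cells, the lining of blood vessels, are commonly recognised. They were chosen by name, and each of the 10 symbols was found once in the deposited table of 30785 genes, with a value in all 12 libraries. All 10 were among the 8715 genes tested. A gene was tested if 3 or more of the 10 libraries with a known outcome had 10 reads or more on it.

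Endothelial cells take up signals from vascular endothelial growth factors through KDR, the main signalling receptor, and FLT1, which binds some of these factors and also acts as a decoy. TEK is the receptor of the angiopoietins, signals that act on vessels, and TIE1 is its partner receptor. CDH5, PECAM1, CLDN5 and ESAM hold neighbouring cells together, while ENG is a co-receptor for bone morphogenetic proteins and EGFL7 is secreted into the matrix around growing vessels.

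The samples were left ventricular free wall tissue of client-owned domestic cats of several breeds and ages, collected after death from carcasses kept cold, with no experimental treatment. Congestive HF had been recorded as the outcome for 6 cats (11, 15, 30, 31, 35 and 37), and arterial thromboembolism (ATE), a clot carried into an artery that in cats mostly comes from a diseased heart, for 3 cats (10, 23 and 38). Cat 10 had heart failure recorded beside ATE, so the outcomes are not exclusive. Cat 36 was the only cat without known cardiac death, with renal failure recorded instead, and no test against it was possible. The labels give cat numbers, and the outcomes were joined from the study's cohort list by these numbers. Cats 22 and 29 are not among the cats that the study lists as sequenced, so the outcome of those 2 libraries was treated as unknown.

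Each library came from 1 cat, so the replicates within an outcome are separate cats, and 4 libraries were run on each of 3 flow cells. Flow cell A held cats 11, 23, 30 and 31, flow cell B held cats 10, 15, 35 and 36, and flow cell C held cats 37, 38, 29 and 22. Native RNA molecules were read on nanopores from the poly(A) end, and a value is the number of reads on a gene divided by 1 size factor per library. The libraries held 789257 to 2263110 reads on genes. Markers of cardiomyocytes, the contracting cells, took 10.5% to 16.0% of all reads, and 4 fat cell markers (ADIPOQ, PLIN1, CIDEC and LEP) took 1 to 14 reads per library, as befits heart muscle. The 10 endothelial genes together had 7833 reads, between 319 in cat 23 and 1476 in cat 11. Their share of a library's reads had a median of 0.0504%. It was lowest in cat 36, at 0.0238% (95% Wilson interval 0.0216% to 0.0262%), and highest in cat 30, at 0.0725% (0.0679% to 0.0774%). These intervals cover counting error only. A share also depends on the reads that other genes took. By the mean log2(value + 1) of the 10 genes, cat 36 was again lowest (4.74), but cat 10 was highest (5.85), with 5.69 in cat 30. In pieces of whole tissue, fewer endothelial cells, less RNA per endothelial cell and more reads from other genes cannot be told apart.

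CDH5, the cadherin of endothelial junctions, had the highest value of the 10 genes in 9 of the 12 libraries. EGFL7 was highest in the libraries of cats 15 and 35, and PECAM1 in that of cat 29. At the other end of the order, CLDN5, the tight junction claudin of vessels, was lowest in 7 libraries and TIE1 in 5. This is an order of reads per gene, each read coming from a single RNA molecule, and no correction for gene length was made. The median value over 12 libraries was 127 for CDH5, 90.0 for PECAM1, 85.3 for EGFL7, 83.2 for ENG and 58.9 for FLT1. Lower medians were those of TEK (41.1), ESAM (38.9), KDR (35.5), TIE1 (10.6) and CLDN5 (6.69). The ranges of neighbours in this order overlapped throughout. Within libraries, CDH5 exceeded PECAM1 in 11 of 12 (all but cat 29) and KDR exceeded TIE1 in 11 of 12 (all but cat 23), whereas the other neighbours changed places in 3 or more libraries.

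**Figure D1:**
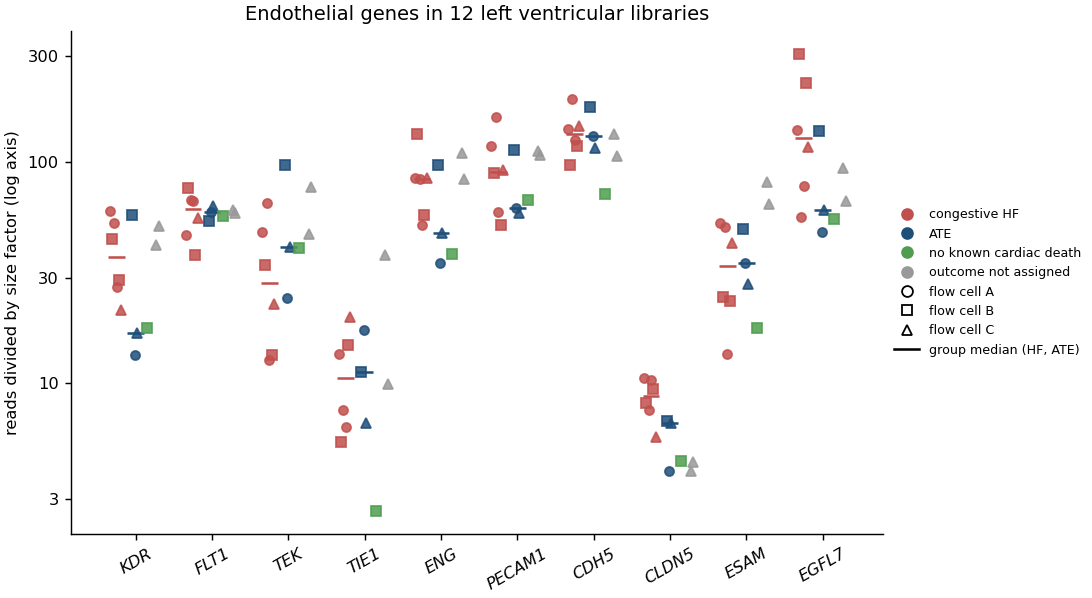
Values of the 10 genes in each library (reads divided by the size factor, log axis), with colour for the outcome, shape for the flow cell and a line at the median of the congestive HF and ATE libraries. CDH5 lies between 71.2 and 192, TIE1 and CLDN5 lie lowest, and the values of congestive HF and ATE overlap for every gene.

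The first comparison asked whether the genes differed between cats with congestive HF and cats with ATE. With limma on log2(value + 1), 0 of the 10 genes passed an adjusted p of 0.05, and 0 had an unadjusted p under 0.05. Over all tested genes 0 of 8715 passed (0%), with 384 at an unadjusted p under 0.05. edgeR and DESeq2 on the recovered reads also called 0 of the 10. The differences, congestive HF minus ATE, ran from -0.72 for TEK to 0.81 for EGFL7, with 5 above 0 and 5 below. Their median was 0.10, beside -0.0020 over all tested genes. The adjusted p of the 10 genes lay between 0.960 and 0.992, and the 95% interval of each difference held 0.

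KDR, the main receptor for vascular endothelial growth factor, had values of 21.5, 37.04 and 59.8 in the lowest, median and highest of the 6 congestive HF libraries. In the ATE libraries it was 13.4 in cat 23, 16.9 in cat 38 and 57.5 in cat 10. Cat 36 had 17.8, cat 29 had 51.0 and cat 22 had 41.9. Thus 2 of the 3 ATE libraries lay below all congestive HF libraries, while cat 10 lay next to the highest. The difference was 0.61 ± 0.46 (SE) on the log2 scale, with a 95% interval from -0.38 to 1.60.

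FLT1, the other receptor of these growth factors, was the steadiest of the 10. Its congestive HF values were 37.8 at the lowest, 61.0 at the median and 76.2 at the highest. The ATE values were 54.1 in cat 10, 59.1 in cat 23 and 63.2 in cat 38, all inside the congestive HF range. Cats 36, 29 and 22 had 57.0, 58.7 and 60.8, again within the same range. The difference of -0.05 ± 0.28 (SE) had an interval from -0.65 to 0.56.

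TEK, the angiopoietin receptor, stood at 12.8, 28.5 and 64.8 in the lowest, median and highest congestive HF library. Cat 23 had 24.2, cat 38 had 41.2 and cat 10 had 96.9, which is the highest TEK value of all 12 libraries. Cat 36 had 41.0, cat 29 had 76.5 and cat 22 had 47.3. The lowest TEK values were both from cats with congestive HF, 31 and 35, but the groups overlapped. The difference was -0.72 ± 0.54 (SE), with an interval from -1.89 to 0.45.

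TIE1, the partner of TEK, was read 3 to 28 times per library, so each of its values is coarse. The congestive HF libraries had 5.45 at the lowest, 10.5 at the median and 20.0 at the highest. The ATE libraries had 6.62 in cat 38, 11.3 in cat 10 and 17.5 in cat 23, and lay inside that range. The extremes were outside both groups, at 2.67 in cat 36 and 37.8 in cat 22, with 9.98 in cat 29. The difference was -0.10 ± 0.49 (SE), from -1.15 to 0.95.

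ENG, the co-receptor for bone morphogenetic proteins, resembled KDR in its order of cats. Congestive HF values were 51.8, 83.9 and 133 at the lowest, median and highest, against 34.9 in cat 23, 47.8 in cat 38 and 96.9 in cat 10 of the ATE libraries. Here too 2 of the 3 ATE libraries were below every congestive HF library. Cat 36 had 38.3, cat 29 had 83.1 and cat 22 had 109. The difference was 0.52 ± 0.37 (SE), with an interval from -0.27 to 1.31.

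Among the junction genes, PECAM1, an adhesion molecule at endothelial contacts, had congestive HF values of 52.0, 90.0 and 159 at the lowest, median and highest. The ATE values were 58.8 in cat 38, 61.8 in cat 23 and 113 in cat 10, and lay between these extremes. Cat 36 had 66.8, cat 29 had 108 and cat 22 had 112. CDH5 had 96.7, 132 and 192 in congestive HF and 115, 130 and 177 in cats 38, 23 and 10, again inside the range. Its lowest value of all, 71.2, was that of cat 36, while cats 29 and 22 had 106 and 134. The differences were 0.24 ± 0.37 (SE) for PECAM1 (-0.55 to 1.03) and -0.06 ± 0.27 (SE) for CDH5 (-0.64 to 0.52).

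CLDN5 had 3 to 22 reads per library and values of 5.72, 8.81 and 10.6 at the lowest, median and highest congestive HF library. The ATE values were 4.03 in cat 23, 6.62 in cat 38 and 6.764 in cat 10. All congestive HF libraries but that of cat 37 were above the ATE libraries. However, the gene reached 10 reads in 3 libraries of known outcome, those of cats 11, 31 and 35, all with congestive HF, so it was tested only through that group and its direction is no support for a difference. Cats 36, 29 and 22 had 4.45, 4.43 and 4.05. The difference was 0.51 ± 0.43 (SE), from -0.42 to 1.43. ESAM, an adhesion molecule of endothelial cells and platelets, had 13.6, 33.7 and 52.6 in congestive HF. In ATE it had 27.9 in cat 38, 34.9 in cat 23 and 49.6 in cat 10, all within the congestive HF range. Cat 36 was low with 17.8, and the highest values were those of cat 29 (64.3) and cat 22 (81.0). The ESAM difference was -0.22 ± 0.42 (SE), from -1.13 to 0.69.

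EGFL7, the secreted factor, had its highest values in a pair of cats with congestive HF. Its lowest, median and highest congestive HF values were 56.4, 127 and 305, and cats 15 and 35, with 305 and 225, exceeded all other libraries. Both were run on flow cell B, where the EGFL7 median was 181, beside 66.9 on A and 79.8 on C. A difference between flow cell B and the others was not tested. The ATE libraries had 48.4 in cat 23, 60.3 in cat 38 and 138 in cat 10. Cat 36 had 55.2, cat 29 had 66.5 and cat 22 had 93.2. With cat 10 above the congestive HF median, the groups overlapped. The difference was 0.81 ± 0.50 (SE), a ratio of 1.75 on the scale of value + 1 (95% interval 0.836 to 3.67), with an adjusted p of 0.960 from limma. This interval holds no difference as well as a ratio of 3.67.

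Cat 10 had the highest ATE value for 8 of the 10 genes, with FLT1 and TIE1 as the exceptions. Without cat 10 the difference was 1.23 for KDR, 0.93 for ENG, 1.25 for EGFL7 and -0.19 for TEK. Leaving out cat 23 moved these genes the other way, to 0.22 for KDR, 0.20 for ENG, 0.51 for EGFL7 and -1.17 for TEK. In both cases 0 of the 10 genes passed the threshold by limma. At an unadjusted p under 0.05 there were 3 of the 10 without cat 10 (KDR, ENG and EGFL7), beside 370 of 8715 genes, and 0 without cat 23. EGFL7 alone was also under it without cat 30 and with flow cell as a covariate, beside 394 and 461 of 8715 genes. Within flow cell A (3 cats with congestive HF and 1 with ATE) the difference was positive for 8 genes, with a median of 0.61. Within flow cell B (2 and 1), which held cat 10, it was positive for 2 genes, with a median of -0.46. Within flow cell C (1 and 1) it was positive for 7, with a median of 0.46. EGFL7 was the only 1 of the 10 with the same sign in all flow cells, at 0.79 in A, 0.93 in B and 0.93 in C. It was singled out after its values were seen, and the single ATE library of each flow cell allows no test within it.

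**Figure D2:**
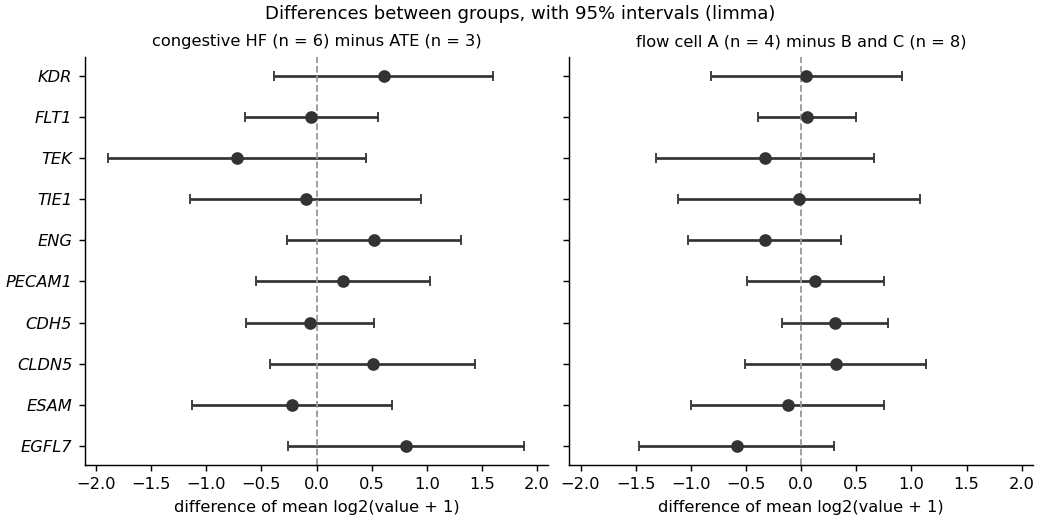
Differences in mean log2(value + 1) for the 10 genes, as points with 95% intervals from limma, between congestive HF and ATE on the left and between flow cell A and flow cells B and C on the right. Every interval crosses 0 in both panels, with TEK (-0.72) and EGFL7 (0.81) farthest from 0 on the left.

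The second comparison was technical and set the 4 libraries of flow cell A against the 8 of flow cells B and C. By limma it called 0 of the 10 endothelial genes, and 0 of them had an unadjusted p under 0.05. Over all tested genes 446 of 8715 passed (5.12%), 141 higher on flow cell A (1.62%) and 305 lower (3.5%). Of all tested genes, 1863 had an unadjusted p under 0.05. For a list of 10 genes, 0 called is not far from a share of 5.12%. edgeR and DESeq2 also called 0 of the 10. The differences ran from -0.58 ± 0.42 (SE) for EGFL7 to 0.31 ± 0.39 (SE) for CLDN5, with a median of 0.02 beside 0.03 over all tested genes. Adjusted p-values lay between 0.439 and 0.990. The values of flow cell A overlapped those of B and C for all 10 genes. The narrowest interval was that of FLT1, from -0.39 to 0.50, and the widest was that of TIE1, from -1.11 to 1.08. The count over all genes rested much on cat 11, without which 51 genes passed, and also moved without cat 31 (129) and cat 15 (295), while 0 of the 10 passed in each case.

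Some genes of other cell types passed between flow cells, namely 2 of 7 tested mural genes, 2 of 7 fibroblast genes and 4 of 9 cardiomyocyte genes. CNN1 and TAGLN, contractile genes of the mural cells around vessels, were higher on flow cell A by 5.90 ± 0.75 (SE) and 2.63 ± 0.45 (SE), with adjusted p-values from limma of 0.00233 and 0.00598. CNN1 had 0 reads in 3 libraries and a median value of 1.12 on B and C, so its difference depends on the 1 added to each value. It was tested only through flow cell A, so its direction is no support for a difference. The mural list took 0.0658% to 0.136% of reads on flow cell A and 0.0226% to 0.0544% on the others, with no overlap. That share rested on the same genes, since without CNN1 and TAGLN it was 0.0367% to 0.0446% on flow cell A and 0.0187% to 0.0437% on the others, which overlap. The median difference of the 7 mural genes was 0.43, with 1 of them below 0. COL1A1 and COL3A1, collagens made by fibroblasts, were also higher on flow cell A (2.63 and 1.84), and the cardiomyocyte genes TNNT2, TNNI3, MYL3 and PLN were lower (-1.05, -1.64, -1.11 and -0.96), while 2 of the 9 cardiomyocyte genes had a difference above 0. The shares of the 10 endothelial genes overlapped, at 0.0354% to 0.0725% on flow cell A and 0.0238% to 0.0628% on B and C. Fibroblast shares overlapped too, at 0.0892% to 0.302% on flow cell A and 0.0213% to 0.148% on B and C. So did cardiomyocyte shares, at 10.5% to 14.7% on flow cell A and 10.5% to 16.0% on B and C. Since each flow cell held its own cats, flow cell and cat cannot be told apart. Of these called genes, CNN1, TAGLN and COL1A1 passed whichever library was left out. For CNN1 this is no support, since only flow cell A brought it past the filter. TNNT2 and MYL3 were lost without cat 11 and TNNI3 without cat 11 or cat 31, while PLN and COL3A1 were lost without any of 9 and any of 8 libraries.

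The spread between libraries differed widely among the 10 genes. FLT1 varied least, with a coefficient of variation of 16.9% over 12 libraries, where counting error alone gives 13.3%. CDH5 followed with 25.5% (8.89% from counting). CLDN5 varied by 35.3%, no more than the 37.4% that its few reads give, so differences between cats in CLDN5 were not detectable at this depth. PECAM1 (35.8%) and ENG (39.8%) had counting errors of 10.6% and 11.9%. KDR (47.2%), ESAM (50.3%) and TEK (58.6%) varied more, with counting errors of 16.6%, 16.2% and 15.3%. TIE1 (73.6%, with 29.5% from counting) and EGFL7 (68.4%, with 9.55%) varied most. In total 9 of the 10 had a coefficient above that of counting error. The excess was not tested, and for FLT1 it was small. The median over all 10 genes, 43.5%, lay beside 40.0% over all tested genes, and beside 40.9% over the 7084 tested genes in the same range of mean value.

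**Figure D3:**
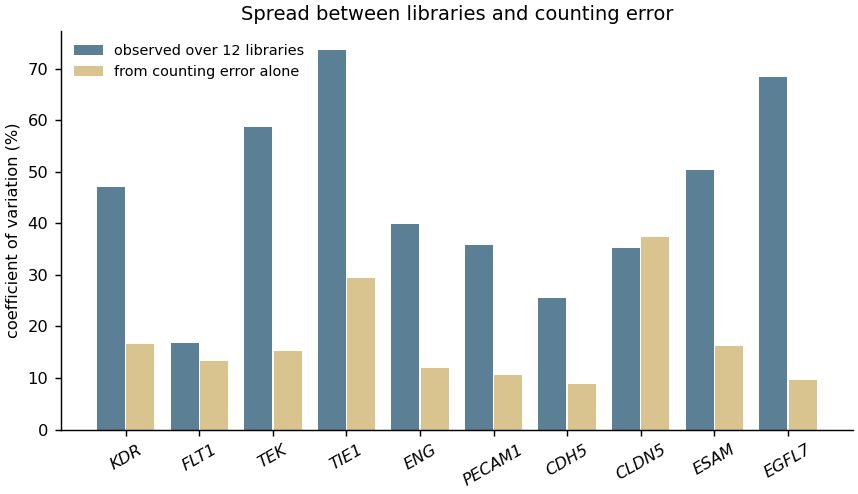
Coefficient of variation of each gene over the 12 libraries (bars from 0, in %), observed and as calculated from counting error alone. CLDN5 is the gene whose observed spread (35.3%) does not exceed counting error (37.4%), and EGFL7 shows the widest distance between the bars (68.4% against 9.55%).

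Ratios of paired receptors within 1 library do not depend on the size factor. KDR made up 18.5% of the KDR and FLT1 reads in cat 23 (95% Wilson interval 10.4% to 30.8%) and 56.1% in cat 11 (49.5% to 62.5%). These intervals do not overlap, and FLT1 had more reads than KDR in all libraries but those of cats 10 and 11. The median share was 40.3% in congestive HF, with a range from 27.8% to 56.1%. In ATE the shares were 18.5% in cat 23, 21.1% in cat 38 and 51.5% in cat 10, so cat 10 again stood apart from the other ATE libraries and the outcomes overlapped.

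For the angiopoietin receptors, TEK made up 47.2% of the TEK and TIE1 reads in cat 35 (32.0% to 63.0%) and 93.9% in cat 36 (83.5% to 97.9%). TEK had more reads than TIE1 in 11 of 12 libraries, the exception being cat 35. The congestive HF libraries spread from 47.2% to 89.5%, with a median of 72.4%. ATE libraries had 58.1% in cat 23, 86.2% in cat 38 and 89.6% in cat 10. Both outcomes thus covered much the same range. Because TIE1 had few reads, the intervals of single libraries were wide.

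**Figure D4:**
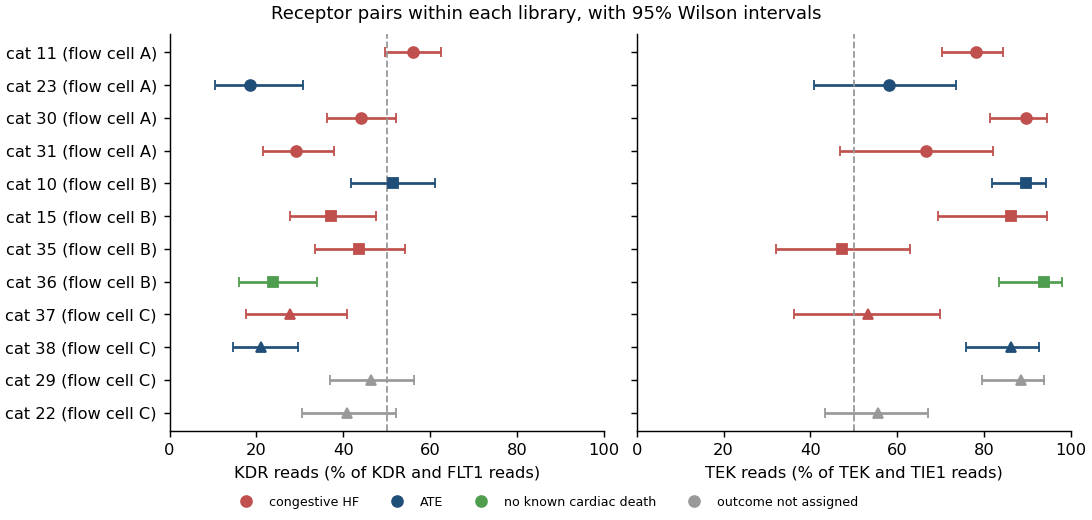
Share of KDR in the reads of KDR and FLT1 (left) and of TEK in the reads of TEK and TIE1 (right) for each cat, as points with 95% Wilson intervals, coloured by outcome and shaped by flow cell. KDR lies above 50% in cats 10 and 11 only, and TEK lies below 50% in cat 35 only.

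The cats differed in where they stood over the 10 genes. Cat 36, without known cardiac death, was among the lowest 3 of 12 libraries for 6 genes and among the highest 3 for none (0). Cat 38 was likewise among the highest 3 for 0 genes and among the lowest 3 for 3. Cats 10, 11 and 30 were each among the highest 3 for 5 genes and among the lowest 3 for 1. Cat 23 held the lowest value for 4 genes (KDR, ENG, CLDN5 and EGFL7). Both high and low cats were found with congestive HF, since cats 31 and 35 were among the lowest 3 for 4 genes each. As a single cat, cat 36 gives no measure of spread in cats without cardiac disease.

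As a description over the 12 libraries, which share depth and size factor between the genes of a library, the 45 pairs among the 10 genes had a median Pearson r of 0.240. Of these pairs, 15 had an r over 0.5 and 14 an r below 0. KDR and ENG were the closest pair (r = 0.811), followed by KDR and PECAM1 (0.780). CLDN5 and ESAM were the farthest (-0.375). Set against the mean of the other 9 genes, ENG had an r of 0.853, KDR 0.809, PECAM1 0.794 and ESAM 0.702. CDH5 (0.546), TEK (0.402), TIE1 (0.275) and EGFL7 (0.219) were less close. FLT1 (-0.0783) and CLDN5 (0.0145), the genes with spread nearest to counting error, had the values nearest to 0. With each flow cell centred on its mean the median r over pairs was 0.338.

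**Figure D5:**
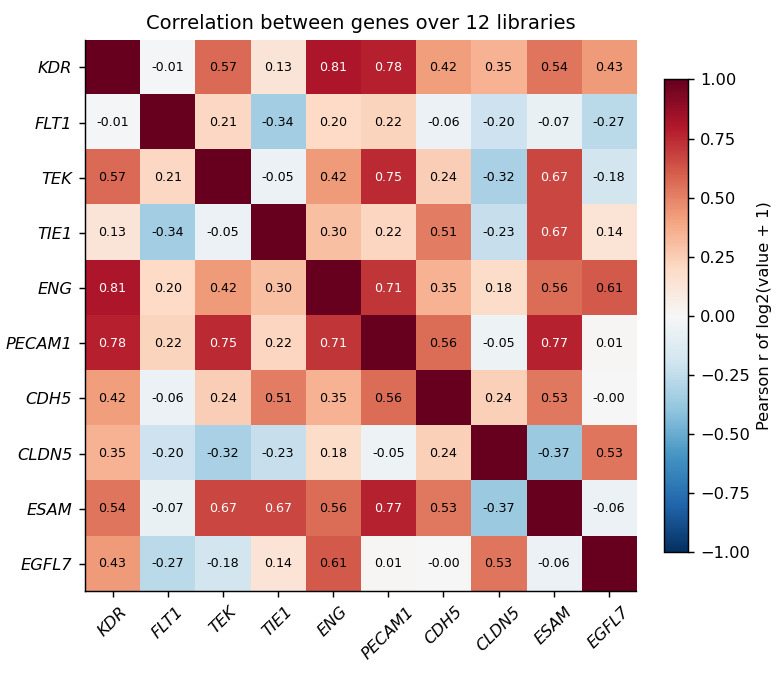
Pearson correlation of log2(value + 1) between each pair of the 10 genes over 12 libraries (colour and printed r). All pairs among KDR, ENG, PECAM1 and ESAM have an r over 0.5, with r = 0.811 for KDR and ENG, while the median r with the other genes is -0.0568 for FLT1 and -0.0543 for CLDN5.

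The genes outside the list whose pattern over 12 libraries was most like the mean of the 10 were ADGRG1 (r = 0.874), TRAPPC6A (0.846), ICAM2 (0.821), SLCO2A1 (0.811) and RBM17 (0.809). ICAM2 is an adhesion molecule of endothelial cells and SLCO2A1 a prostaglandin transporter. ADGRG1 had 7 to 41 reads per library, TRAPPC6A 0 to 23 and SLCO2A1 1 to 34, so their patterns are coarse. With flow cells centred, the closest were CXCL16 (0.931), PITPNB (0.904), ADGRG1 (0.888), OLA1 (0.885) and TRAPPC6A (0.877).

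Further genes were examined as 4 lists. They were other endothelial genes, endothelial transcription factors, ligands and co-receptors of the receptors above, and genes of endoglin and bone morphogenetic protein signalling. Of the 56 genes in these lists, 41 were tested. Between congestive HF and ATE 0 of them passed, with 2 at an unadjusted p under 0.05 by limma. Of the ligands and co-receptors that act on KDR, FLT1 and TEK, 7 of 11 were tested. VEGFB, a ligand of FLT1, was the only gene of the 4 lists to pass a test, which is 2.44% of the 41 tested beside 5.12% of all genes in the same comparison. Such a share is no more than the background. VEGFB had values of 124 to 293 on flow cell A and 319 to 554 on B and C. It was lower on flow cell A by 1.19 ± 0.23 (SE) on the log2 scale (difference -1.19, adjusted p = 0.00928 by limma), without overlap. The call was lost without cat 11, at an adjusted p of 0.0609 by limma.

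Beside the mean of the 10 genes, the 7 tested endothelial transcription factors had a median r of 0.516, with all 7 above 0. The 19 other endothelial genes had a median of 0.327, the 8 genes of endoglin and bone morphogenetic protein signalling a median of 0.314 and the 7 ligands and co-receptors a median of 0.218. For lymphatic endothelium (4 genes) the median was -0.0141, with 1 gene above 0. The corresponding median over all other tested genes was -0.0216. For cardiomyocyte genes (9 tested) it was 0.0305, for fibroblast genes (7) -0.0355, for mural genes (7) -0.00266 and for immune cell genes (5) -0.270. These are descriptions over 12 libraries that share depth and size factor.

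Further comparisons asked whether the genes followed the myocardial fibrosis percentage or the age that the study lists for each cat, which makes 20 relations. For fibrosis, over 8 cats, rho lay between -0.238 for CLDN5 and 0.238 for FLT1, with 5 genes above 0 and 5 below. By exact permutation (two-sided) 0 of the 10 passed, 0 had an unadjusted p under 0.05 and every adjusted p was 1, while 0 of all 8715 genes passed (0%), with 247 at an unadjusted p under 0.05. FLT1 had a rho with an exact permutation p of 0.582 and a Pearson r of 0.444 with an exact permutation p of 0.270. Its r was 0.0510 without cats 15 and 23, which lie farthest from the median, and 0.510 within flow cells. Its rho was -0.0357 without cat 15 alone, 0.286 without cat 23 alone and -0.143 without cat 35 alone. For CLDN5 the r of -0.305 (exact permutation p = 0.462) was 0.0147 without those cats and -0.329 within flow cells.

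With age, over 9 cats, 9 of the 10 genes had a positive rho and CLDN5 a negative one (-0.0667). Over all 8715 tested genes, 4061 had a positive rho and 4487 a negative one. The 10 genes were read in the same cats and several were correlated, so their signs are not separate results. Cat 36, the youngest of these cats, was also the only cat without known cardiac death. The median rho was 0.317, beside -0.0167 over all tested genes. With TMM-scaled CPM in place of the deposited values each of the 10 genes kept its sign, from -0.0833 for CLDN5 to 0.45 for FLT1. By exact permutation (two-sided) 0 of the 10 passed and 0 had an unadjusted p under 0.05, as 0 of all 8715 genes passed (0%), with 415 at an unadjusted p under 0.05. The highest was CDH5, with a rho of 0.467 (exact permutation p = 0.213, adjusted p = 0.947) and an r of 0.470 (exact permutation p = 0.204), and 0.475 within flow cells. Without the 2 cats farthest from the median age its r was between -0.259 and 0.536, depending on whether cat 15 or the equally distant cat 36 was left out beside cat 30. PECAM1 had an r of 0.513 (exact permutation p = 0.157), which was 0.0604 to 0.0909 without those cats, so it rested on them. FLT1 had a rho of 0.45 (exact permutation p = 0.230) and an r of 0.473, which was -0.0382 to 0.381 without those cats.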

How the data were processed

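Per the methods of the authors, bases were called with Guppy, low-quality reads were removed, Minimap2 placed the rest on felCat9 and FeatureCounts counted them per gene. Its strand setting is not given in the sources used here. The signal values they deposited are reads divided by 1 size factor per library. Whole reads were recovered for 100% of values (relative tolerance 1e-06), and on these edgeR called 0 genes between outcomes and 435 between flow cells. limma with an intensity trend was run on log2(value + 1), with a pseudocount of 1. Spearman's rho was tested by exact permutation of the trait. Benjamini-Hochberg adjustment ran over all 8715 tested genes, with a threshold of 0.05, and each test was tried on simulated data. Age and fibrosis came from the study's cohort list.

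The genes and lists were chosen with earlier results of these data known. Named were all 10 genes, list genes past the threshold (up to 5 per direction and list), and the 5 genes most like the mean of the 10. A gene table of another build served for names only (10 of 10 matched), so no coordinates are given. Alternatives were TMM scaling, pseudocounts of 0.5 and 2, no filter, edgeR, DESeq2, flow cell as a covariate, Pearson's r, limma slopes, unscaled reads, the libraries of cats 22 and 29, and each library left out. Tools were R 4.3.3, limma 3.58.1, edgeR 4.0.16, DESeq2 1.42.0, matplotlib 3.10.9, scipy 1.17.1, pandas 2.3.3, numpy 2.4.6 and Python 3.11.15.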

Additional observations from a re-analysis of the deposited data

How the results depend on the processing

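Under every alternative run, 0 of the 10 endothelial genes passed the threshold in the 4 comparisons. Over all genes, the count between flow cells was 446, and 829 with DESeq2, and between outcomes it was 0, and 1 with DESeq2, without a filter or without cat 37. At an unadjusted p under 0.05 there were 3 of the 10 between outcomes without cat 10, 1 (EGFL7) without cat 30, 1 (EGFL7) with flow cell as a covariate and 2 (TEK and EGFL7) with flow cells B and C only, and 1 (CDH5) for age without cat 15. With libraries of flow cells B and C only, an alternative chosen after seeing the data, the difference between outcomes changed sign for KDR (-0.0417), TIE1 (0.42) and PECAM1 (-0.12). Between flow cells, the 10 libraries of known outcome gave 0.26 for TIE1 and 0.20 for ESAM. For fibrosis, Pearson's r was -0.0283 for PECAM1 and 0.145 for EGFL7, and rho with cats 22 and 29 was 0.0424 for EGFL7. limma slopes (log2 per percentage point) were -0.00464 for PECAM1 and 0.0427 for EGFL7, and with flow cell as a covariate -0.0285 for PECAM1, -0.0138 for ESAM and 0.0455 for EGFL7. TMM-scaled CPM changed no sign among the 10 for fibrosis or age. Unscaled reads carry the depth of each library in every gene, so they are no test of the scaling. On them rho with fibrosis was -0.240 for FLT1, 0.0476 for TEK, -0.0952 for ENG, -0.333 for PECAM1 and -0.286 for ESAM. For age it was -0.0167 for KDR, -0.433 for FLT1, -0.0167 for TEK, -0.183 for PECAM1, -0.0418 for CDH5 and -0.117 for EGFL7. With cats 22 and 29 rho with age was -0.0909 for TEK and 0.0636 for CLDN5. The cause of these changes was not tested.

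Leaving out 1 library at a time changed the sign of many values, among them all 10 for fibrosis. Between outcomes the range was -0.13 to 0.0691 for FLT1, -0.42 to 0.21 for TIE1, -0.19 to 0.11 for CDH5 and -0.41 to 0.0089 for ESAM. Between flow cells it was -0.23 to 0.46 for KDR, -0.0288 to 0.17 for FLT1, -0.67 to 0.0855 for TEK, -0.25 to 0.23 for TIE1, -0.14 to 0.33 for PECAM1 and -0.33 to 0.30 for ESAM. For fibrosis rho was -0.214 to 0.429 for KDR, -0.143 to 0.429 for FLT1, -0.607 to 0.143 for TEK, -0.321 to 0.429 for TIE1, -0.107 to 0.643 for ENG, -0.214 to 0.536 for PECAM1, -0.25 to 0.214 for CDH5, -0.536 to 0.143 for CLDN5, -0.0714 to 0.464 for ESAM and -0.393 to 0.357 for EGFL7. For age it was -0.0952 to 0.310 for KDR, -0.119 to 0.262 for TEK, -0.381 to 0.143 for CLDN5 and -0.190 to 0.286 for EGFL7. No paired analysis was possible because the labels give no replicate numbers that the outcomes share, and each cat had 1 library. Flow cell, which the labels do give, was entered as a covariate. With 3 ATE libraries the intervals were wide, and TIE1 and CLDN5 were limited by their reads.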

Other observations

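Among genes of endoglin and bone morphogenetic protein signalling, the receptor BMPR2 and the transcriptional regulators ID1 and ID3 were the closest to the mean of the 10 endothelial genes over 12 libraries. Their r was 0.775 for BMPR2, 0.749 for ID3 and 0.691 for ID1. Once flow cells had been centred on their means it was 0.788 for BMPR2, 0.775 for ID3 and 0.876 for ID1. BMPR2 had 38 to 221 reads per library, ID1 had 29 to 186 reads per library and ID3 had 23 to 164. The other tested genes of this list were less close. Before centring their r was 0.365 for SMAD1, 0.263 for ACVRL1, 0.238 for TGFBR2, 0.208 for SMAD5 and -0.0692 for SMAD4. SMAD4, the shared mediator of this pathway, had a centred r of -0.115. BMPR2, ID1 and ID3 were singled out after their values were seen, and the r values are descriptions over libraries that share depth and size factor.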
